A study of Mus musculus with 24 samples.

Results

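The 6 arrays described here compare mouse liver left at room temperature for 96 h with liver of the same animals that went into RNAlater, a reagent that preserves RNA, at 0 h. They are 6 of the 24 arrays of the series, chosen by their labels: total RNA including small RNAs, isolated with on-column DNase digestion, at 0 h (3 arrays) and at 96 h (3 arrays). Each of 3 mice (7, 9 and 10) gave 1 array to each group, and the groups shared everything but the time before RNAlater. The livers were fresh tissue of male animals whose strain is not given for this experiment in the sources used here, and each was cut into parts, so that the arrays of an animal are different pieces of 1 liver. All arrays of a mouse lay on 1 slide, so mouse, slide and scan cannot be told apart. Every array carries probes for 1881 mouse miRNAs. The number of animals, 3, limits the precision.

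MicroRNAs (miRNAs) are short RNAs cut from hairpin precursors by the enzymes Drosha and Dicer. Both arms of a hairpin, called 5p and 3p, can give a mature miRNA. Argonaute proteins hold the mature strand, and bases 2 to 8, the seed, pair with messenger RNAs that are then repressed. Liver is known for miR-122, which hepatocytes make in very large amounts. Members of a family share a seed, and the let-7 family, known for its role in the timing of development, is common in adult tissue.

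The mature sequences that the results turn on are shown first, from RefSeq on GRCm38.p6, in 5′ to 3′ direction with the seed in capitals. The following miRNAs were lower at 96 h. They are members of the let-7 and miR-29 families, each with its shared seed, markers of endothelial and red cells, and the miRNA with the deepest fall.
let-7f-5p: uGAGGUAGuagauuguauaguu
let-7d-5p: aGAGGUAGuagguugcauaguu
let-7a-5p: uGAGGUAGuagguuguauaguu
miR-98-5p: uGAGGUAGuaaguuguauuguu
miR-29a-3p: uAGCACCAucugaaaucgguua
miR-29b-3p: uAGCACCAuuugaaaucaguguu
miR-126a-3p: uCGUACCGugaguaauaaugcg
miR-144-3p: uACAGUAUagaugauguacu
miR-3968: cGAAUCCCacuccagacacca

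The next set holds miRNAs that were higher at 96 h. The first 6 had the largest rises among miRNAs detected on all 6 arrays, the following 4 were detected only at 96 h, and the last 2 were among the brightest at 96 h.
miR-5128: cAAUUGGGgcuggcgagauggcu
miR-135a-1-3p: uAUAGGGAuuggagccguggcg
miR-6538: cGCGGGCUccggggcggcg
miR-7118-5p: uGGGGAAGgcgggagagggaac
miR-6931-5p: uGGGGUGGggagugggggacu
miR-3620-5p: cUGUGGGCugggcugggaagca
miR-721: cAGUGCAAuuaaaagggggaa
miR-7045-5p: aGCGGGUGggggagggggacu
miR-3473f: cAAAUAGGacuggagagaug
miR-3154: cAGAAGGGgagucgggagcgga
miR-5126: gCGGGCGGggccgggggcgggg
miR-8110: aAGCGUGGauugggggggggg

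A last pair shows both arms of the miR-125a hairpin, which moved in opposite directions.
miR-125a-5p: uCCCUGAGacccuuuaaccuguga
miR-125a-3p: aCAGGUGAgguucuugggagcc

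In the genome, miR-126a-3p lies at chr2:26591402-26591423 on the plus strand, within the span of Egfl7, a gene of endothelial cells. The stretch for miR-5128 is chr2:37688212-37688234 on the minus strand, within the span of Strbp. That for miR-7118-5p is chr15:89162882-89162903 on the minus strand, within the span of Plxnb2. Likewise miR-5126 lies at chr1:84695890-84695911 on the plus strand, within the span of Dner. No protein-coding gene spans the first of the 2 let-7f loci, at chr13:48537889-48537910 on the minus strand. The hairpin of miR-125a lies within the span of Spaca6, with the 5p arm at chr17:17830817-17830840 and the 3p arm at chr17:17830855-17830876, both on the plus strand.

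RNA integrity (RIN, on a scale that falls with fragmentation of the RNA) was 9.0, 8.9 and 8.9 at 0 h in mice 7, 9 and 10, and 2.3, 2.4 and 2.3 at 96 h. More miRNAs were called detected in the stored liver of each animal. The scanner software's detection flag was set for 285, 308 and 303 miRNAs at 0 h in mice 7, 9 and 10, and for 639, 707 and 582 at 96 h. The mean rose from 299 ± 12.1 to 643 ± 62.6 (SD, n = 3 each), and the groups did not overlap. An exact two-sided permutation test gave p = 0.1, the smallest that 3 arrays against 3 can give, and p = 0.108 after Benjamini-Hochberg adjustment over 14 values per array tested in this way.

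The summed signal of the detected miRNAs moved the same way. It was 55237, 92287 and 109374 intensity units at 0 h and 245927, 362324 and 199478 at 96 h, a mean difference of 1.66 on the log2 scale with all mice higher at 96 h (exact permutation p = 0.1). Mouse 10 had the highest total of the 3 at 0 h and the lowest at 96 h. The 10 brightest miRNAs took 84.4%, 87.2% and 86.7% of the detected signal at 0 h but 51.3%, 58.5% and 56.2% at 96 h (exact permutation p = 0.1). Signal was thus spread over more miRNAs at 96 h in every mouse.

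Spike-ins are synthetic nucleic acids added in equal amount to every sample during labelling or hybridisation. The mean of dmr_285, dmr_31a, dmr_6 and dmr_3 was 1.43, 1.34 and 1.35 times as high at 96 h as at 0 h in mice 7, 9 and 10. On the log2 scale it went from 10.86 ± 0.13 to 11.31 ± 0.09 (SD, n = 3 each, difference 0.46, exact permutation p = 0.1). Each of the 4 was higher at 96 h in all mice. For dmr_3 the signals were 6549, 6336 and 7819 at 0 h and 9309, 8689 and 9928 at 96 h. Both the number of detected miRNAs and the summed signal thus rose on arrays whose spike-ins were also brighter. Whether the higher spike-in signal has a part in the results was not tested; the calls of single miRNAs were also made on the spike-in scale.

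**Figure D1:**
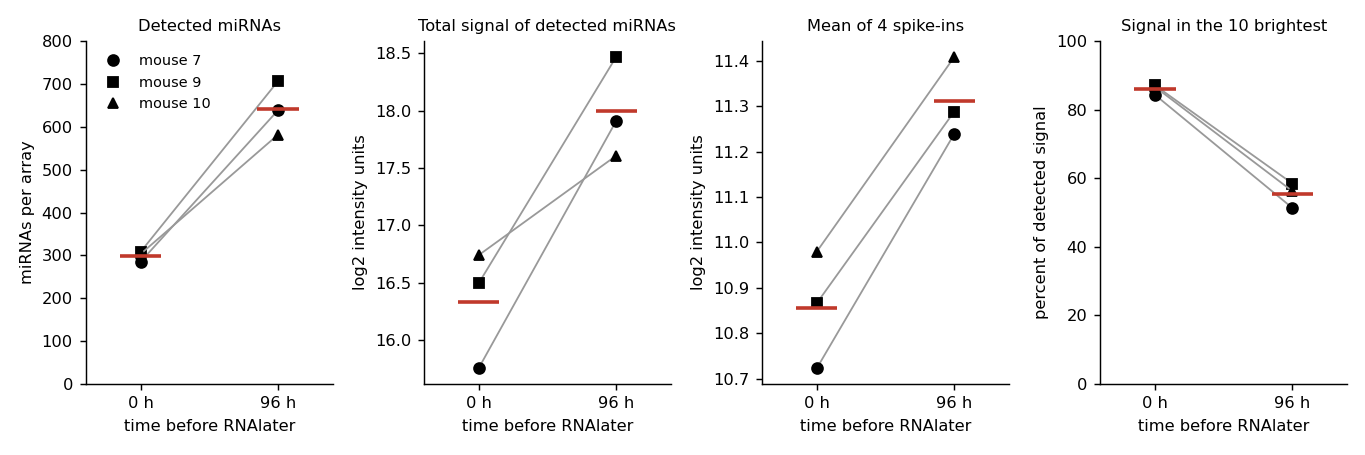
Detected miRNAs per array, summed signal of detected miRNAs (log2 intensity units), mean of the 4 spike-ins (log2 intensity units) and percent of detected signal in the 10 brightest miRNAs, at 0 h and 96 h before RNAlater. Symbols are mice, grey lines join pieces of the same liver and red bars are means of 3 arrays; detected miRNAs rose from a mean of 299 to 643 while the share of the 10 brightest fell from 86.1% to 55.4%.

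A scale had to be chosen before single miRNAs could be compared. The main values are the deposited log2 values, normalised by the authors with variance stabilization, which multiplied the 96 h signals by a smaller factor than the 0 h signals (difference of the factors -1.88 on the log2 scale). A miRNA was called where limma's adjusted p was below 0.05 and its change was at least 1 on the log2 scale. On this scale the 631 miRNAs tested had a median change of 2.36, so a miRNA with no change on the deposited scale lies well below the median. The median was 3.55 with no scaling between arrays, 3.04 scaled to the spike-ins, 0.79 after quantile normalization, and 0.84 and 0.46 on a pair of scales that set the 75th percentile of each array equal, taken over miRNAs detected on all arrays and over all miRNAs. The directions of single miRNAs and lists below are on the deposited scale unless another is named.

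At 96 h, 377 of the 631 miRNAs tested were higher (59.7%) and 136 were lower (21.6%) than at 0 h. Of these, 241 (38.2%) were called higher and 96 (15.2%) lower on all 6 scales, and no miRNA called on the deposited scale was called in the other direction on another. The balance was near even after normexp background correction (76 higher and 77 lower), and without the filter on detection it was 638 and 578. Each of the 136 lower calls had the same sign in all 3 mice, as did 370 of the 377 higher calls. The median change was 2.67 in mouse 7, 2.36 in mouse 9 and 1.76 in mouse 10. Changes of the 631 miRNAs correlated at r = 0.97 between mice 7 and 9, at 0.91 between mice 7 and 10 and at 0.91 between mice 9 and 10, a description across miRNAs that share arrays. The methods' rank test in its exact form cannot go below p = 0.1 with 3 arrays a group and called none (0 at an unadjusted p below 0.05), though 542 of the 631 reached that smallest p.

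**Figure D2:**
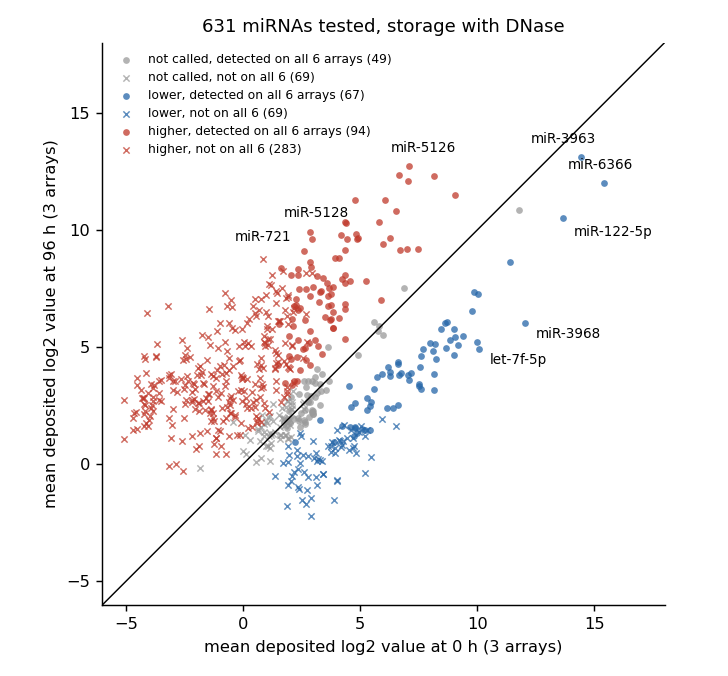
Mean deposited log2 value of each of the 631 tested miRNAs at 0 h (x axis) and at 96 h (y axis), 3 arrays each, with the line of equal values. Colours give the call, circles mark miRNAs detected on all 6 arrays and crosses the others; miR-122-5p, miR-6366 and let-7f-5p lie below the line and miR-5126, miR-5128 and miR-721 above it, on all 6 scales, whereas miR-3963 lies below it here but is higher at 96 h without scaling.

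The detection flags sort the 1881 miRNAs without any scaling. On none of the 6 arrays were 1083 detected, and 210 were detected on all 6. Another 283 went from 0 of 3 arrays at 0 h to 3 of 3 at 96 h, and 27 went the other way (45 when mouse 10 was left out). The remaining 278 were detected on some arrays of a group. Of the 27 lost miRNAs 14 have early names (let-7, or a number under that of miR-300), against 19 of the 283 gained. Late names, from miR-3000 upward, were carried by 196 of the gained and 3 of the lost. Of all 1881 miRNAs 373 have early and 936 late names.

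With the largest share of signal among the 27 miRNAs detected only at 0 h were miR-140-5p, miR-30e-3p, miR-19a-3p, miR-144-3p, miR-425-5p and miR-322-5p. The signal of miR-144-3p, made in red cell precursors, was 5.7, 9.23 and 22.2 at 0 h in mice 7, 9 and 10 and at or under 0 on all 3 arrays at 96 h. It was at least 14.1-fold lower at 96 h. This fold is taken against the lowest detected value of each 96 h array on the deposited scale. The limma change of miR-144-3p, which also uses values below that level, was -5.41 ± 0.48 (log2, SE, adjusted p = 5.28e-09). The bound for the other 5 ranged from 7.16-fold for miR-322-5p, a relative of miR-15 and miR-16, to 15-fold for miR-30e-3p, the opposite arm of a miR-30 member. All 27 were called lower. Their choice by detection makes this likely, so the calls and p-values of lost miRNAs are given as a description. None of these 6 had exceeded 22.2 intensity units on any array.

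Clear signals appeared among the 283 gained miRNAs. In mice 7, 9 and 10, miR-721 had signals of 1966, 2243 and 396 at 96 h and was not detected on any array at 0 h. That is at least 208-fold higher on the deposited scale, and the limma change of miR-721 was 7.90 ± 0.58 (log2, SE, adjusted p = 6.87e-10). For miR-7045-5p the 96 h signals were 591, 743 and 919.7, at least 107-fold higher, with a limma change of 6.83 ± 0.59 (adjusted p = 3.64e-09). The same bound was 95.1 for miR-7040-5p, 91.1 for miR-3473f, 58.8 for miR-3154 and 58.5 for miR-5131. The 3 mice were not equally bright: miR-721 and miR-3473f were lowest in mouse 10, whereas miR-7040-5p and miR-3154 were highest there. Of the gained miRNAs 271 passed the filter on detection and 227 of them were called higher. The filter and the detection rule make this count likely, so it is given as a description. The adjusted p-values of gained miRNAs are likewise a description, since these miRNAs were chosen by their detection.

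A miRNA on the array has between 1 and 4 probes of different sequence, so the calls could be read probe by probe. For 199 of the 283 gained miRNAs, every probe exceeded 3 times its error on all 3 arrays at 96 h, and for 71 exactly 1 probe did. Of 376 miRNAs called higher with at least 2 probes, the mean unscaled signal of every probe rose in 368. Among 136 called lower, every probe fell in 124. Probes of most called miRNAs thus moved together, without any scaling between arrays. For higher calls this was likely beforehand, since the median unscaled change of all tested miRNAs was 3.55 (log2). Probes of uncalled miRNAs were not counted in this way.

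Among the 210 miRNAs detected on all 6 arrays, 94 were higher, 67 were lower and 49 were not called. On all 6 scales 62 of them were called higher and 42 lower. The order of these 210 by signal was similar between mice of a group, with Spearman's rho from 0.95 to 0.97 at 0 h and from 0.88 to 0.98 at 96 h. Between 0 h and 96 h of the same animal, rho was 0.15 in mouse 7, 0.14 in mouse 9 and 0.43 in mouse 10, a description across miRNAs. The brightness order of the stored liver was thus shared by the animals and unlike that of the fresh liver.

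Largest of the rises among these 210 was that of miR-5128. Its signal was 3.27, 3.04 and 10.2 at 0 h and 3766, 6932 and 750.1 at 96 h in mice 7, 9 and 10. The change was 7.08 ± 0.60 (log2, SE, limma adjusted p = 3.33e-09), and every 96 h array was above every 0 h array. For miR-135a-1-3p, the 3p arm of a hairpin whose 5p arm is known from brain, signals of 1.08, 0.969 and 3.73 became 1406, 2114 and 275. Mouse 10 was again the lowest at 96 h and the highest at 0 h. The rises of miR-6538 (6.64 ± 0.43), miR-7118-5p (6.52 ± 0.62), miR-6931-5p (6.51 ± 0.49) and miR-3620-5p (6.06 ± 0.49) were of like size (log2, SE, adjusted p from 1.84e-10 to 1.04e-08). Mouse 10 gave the highest 96 h signal for miR-6931-5p (1364, 957 and 2713 in mice 7, 9 and 10) and for miR-3620-5p (628, 485 and 1443). All 6 were higher on all 6 scales, with the smallest of these changes at 4.26 (miR-3620-5p, quantile normalization).

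The deepest fall, among all tested miRNAs, was that of miR-3968, from 1639, 3716 and 5130.1 at 0 h to 185, 231 and 133 at 96 h (change of -6.01 ± 0.32, adjusted p = 2.05e-11). It was one of 9 miRNAs called lower among 326 tested with late names, 243 of which were called higher. Over all tested miRNAs 21.6% were lower and 59.7% higher, and of 141 with early names 97 were lower and 27 higher. On all 3 arrays of a group, 99 late-named miRNAs were detected at 0 h and 307 at 96 h. Many thus passed the filter through stored liver, and the counts are a description. The next deepest falls among miRNAs detected on all 6 arrays were those of let-7f-5p, let-7d-5p and let-7a-5p. The signal of let-7f-5p was 599.7, 901 and 1005 at 0 h and 40, 42.8 and 312 at 96 h, a change of -5.18 ± 0.65 (adjusted p = 3.65e-07). Mouse 10 kept more signal than the other mice at 96 h, yet stayed below every 0 h array. The falls of miR-23b-3p, of a cluster widely made in tissues, and of the endothelial miR-126a-3p were -4.40 ± 0.37 and -4.34 ± 0.41 (adjusted p of 2.67e-09 and 9.23e-09). Without scaling, these 6 still fell, by 2.49 (miR-126a-3p) to 4.14 (miR-3968) on the log2 scale.

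The miRNAs with the largest shares of the signal changed. A share of signal is not a share of molecules, since probes differ in how strongly they bind. At 0 h miR-6366 took 40.1% ± 2.2 of the detected signal (SD, n = 3), miR-3963 20.7% ± 3.2, miR-122-5p 11.9% ± 0.69, miR-3968 3.89% ± 0.87 and miR-5100 3.31% ± 0.6. In the stored liver the 5 largest shares were those of miR-3963 (13% ± 11), miR-5126 (7.38% ± 1.9), miR-8110 (6.24% ± 5.6), miR-3960 (5.78% ± 2) and miR-1224-5p (5.56% ± 1.4). The last 4 had been at 64.6 to 261 intensity units in the fresh liver.

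In unscaled signal, both miR-3963 and miR-5100 split the mice. For miR-3963 the signal was 9627, 19129 and 26046 at 0 h and 28429, 89031 and 5923 at 96 h in mice 7, 9 and 10, so it rose in mice 7 and 9 and fell in mouse 10. Its deposited change of -1.33 ± 0.58 (adjusted p = 0.0389) became 0.093 on the spike-in scale and 0.55 without scaling. For miR-5100 the deposited change of -0.93 ± 0.46 (adjusted p = 0.0613) became 0.49 and 0.95 on the same scales. On the deposited scale both fell in every mouse, with miR-3963 at -0.42, -0.053 and -3.53 in mice 7, 9 and 10. The direction of both thus depends on the scale and, in unscaled signal, on the animal. By contrast miR-5126 went from 118, 83.4 and 107 to 22724, 19748 and 14869, with a change of 5.64 ± 0.48 (adjusted p = 3.64e-09) and a higher call on all 6 scales.

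Lists of miRNAs with known roles were then followed, of which 107 of 108 entries are on the array. All 8 of the hepatocyte list (miR-122-5p and -3p, miR-192-5p, miR-194-5p, miR-148a-3p, miR-21a-5p, miR-22-3p and miR-30a-5p) were detected on all 6 arrays, and all 8 were called lower on the deposited scale. Over all tested miRNAs 21.6% were called lower, and among the 141 tested with early names, which all 8 have, 68.8%. The first share includes 271 gained miRNAs, none of which was called lower. The median change of the hepatocyte list was -2.75, against 2.36 over all tested miRNAs. The signal of miR-122-5p was 6767, 11368 and 12125 at 0 h and 3030.5, 3677 and 6117 at 96 h, a change of -3.14 ± 0.49 (adjusted p = 4.97e-06). It was detected on every array, so the defining miRNA of hepatocytes was present in both groups. Its opposite arm miR-122-3p fell further, by 4.07 ± 0.41 (adjusted p = 2.37e-08).

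Without scaling, the median of the hepatocyte list fell by 0.87 on the log2 scale. Of the 8, 3 (miR-122-5p, miR-122-3p and miR-194-5p) were called lower on all 6 scales. The share was 15.2% over all tested miRNAs and 51.8% over those with early names. For miR-22-3p the unscaled signals were 601, 698 and 836 at 0 h and 306, 365 and 850.2 at 96 h, so mouse 10 was level while mice 7 and 9 fell. The share of the list in the detected signal went from 17.4% ± 1.3 to 2.85% ± 1.8 (SD, n = 3). In tissue pieces of this kind, fewer cells of a type and less RNA per cell cannot be told apart.

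Of the let-7 list, 10 of 12 miRNAs were tested, 9 were called lower and all 9 of them on all 6 scales. The share lower on all 6 scales was 15.2% over all tested miRNAs and 51.8% over those with early names. These 9 share the seed GAGGUAG, and their changes ran from -5.59 (let-7e-5p) to -2.84 (let-7i-5p). For let-7i-5p, the least changed, signals of 51.2, 79.5 and 105 became 29.3, 29.6 and 61.5. The exception was miR-202-3p, whose seed differs in the last base. It was called higher (1.03 ± 0.46, adjusted p = 0.043), but its change was -0.43 on the scale set by all miRNAs. The let-7 members differ from each other by few bases, and binding of one member to the probe of another was not tested.

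Families shared by many tissues were followed next, and their counts stand against 21.6% of all tested miRNAs called lower and 15.2% lower on all 6 scales. Among tested miRNAs with early names these shares were 68.8% and 51.8%. All 8 tested members of the miR-29 and miR-30 families were called lower (median -3.50), 6 of them on all 6 scales. In the miR-29 family, which represses collagens, miR-29b-3p went from 129, 213 and 353 to 19.2, 21.1 and 136 (change of -4.31 ± 0.62, adjusted p = 2.12e-06). The smallest change of these 8 was that of miR-30d-5p, whose unscaled signal barely moved (30.9, 39.8 and 48.3 at 0 h, 32.5, 53.5 and 26.3 at 96 h). The miR-15, miR-16 and miR-26 list, with members that restrain the cell cycle, had 8 of 8 lower (median -3.26, 7 on all 6 scales). All 7 tested members of the miR-17-92 and miR-106b-25 clusters, made in dividing cells, were lower (median -3.46, 5 on all 6 scales).

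Smaller lists differed in how many calls held on all 6 scales. Over all tested miRNAs 21.6% were lower, and 15.2% on all 6 scales, against 68.8% and 51.8% of those with early names. All 5 of the miR-99, miR-100 and miR-125 list were lower on all 6 scales (median -3.60). The 5 of miR-23, miR-24 and miR-27 and the 5 of miR-101, miR-148 and miR-152 were all lower on the deposited scale (medians -2.98 and -2.43), with 3 and 2 of them lower on all 6 scales. The 2 tested members of the injury list, miR-21a-5p and the p53 target miR-34a-5p, were both called lower, and neither on all 6 scales.

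Seeds with at least 3 tested members that have a RefSeq sequence showed how far families kept together. Tested members without one, such as miR-30b-5p and miR-30d-5p, are left out of these counts. On the deposited scale every counted member was lower for AAAGUGC (4 of the miR-17 family), AGCACCA (3 of miR-29), ACCCGUA (3 of miR-99 and miR-100), AGCAGCA (6 of miR-15 and miR-16), GUAAACA (3 of miR-30) and CAGUGCA (3 of miR-148 and miR-152). In contrast CCCUGAG, the seed of miR-125a-5p and miR-125b-5p, is shared with miR-6394, which was called higher (4.51), though not on all 6 scales, while the other two fell (-3.60 and -4.15). For AGGAGAG all 3 (miR-7057-5p, miR-8113 and miR-8119) were higher, though only 1 on all 6 scales. Members parted for AUUGCAC, where miR-25-3p and miR-92a-3p were lower, neither on all 6 scales, and miR-92b-3p was not called. For UGGGAAG 2 of 3 were higher.

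Markers of the other cells of a liver piece stand against the same shares over all tested miRNAs (21.6% lower, 15.2% on all 6 scales). For tested miRNAs with early names the shares were 68.8% and 51.8%. In the endothelial and stromal list 8 of 9 were lower (median -3.26, 7 on all 6 scales). The stromal miR-199a-3p went from 21.1, 28.9 and 50.7 to 4.22, 2.99 and 16.8 (change of -3.94 ± 0.50, adjusted p = 4.27e-07). The exception was miR-145a-5p of smooth muscle, at 2.37, 2.66 and 8.57 at 0 h and 13.9, 30.3 and 4.4 at 96 h, with a change of -0.24 that became 1.24 on the spike-in scale and 1.70 without scaling. Of the immune list 5 of 6 were lower and 4 of them on all 6 scales, with miR-142a-3p of blood cells down by 5.14 ± 0.50 (adjusted p = 1.44e-08). The exception here was miR-155-5p, known to be induced in activated immune cells, which was not detected at 0 h and reached 51.8, 66 and 26.7 at 96 h, at least 6.52-fold higher (adjusted p = 2.35e-05).

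The erythroid list had 3 tested members. Both miR-144-3p and miR-451a were lower (-5.41 ± 0.48 and -2.61 ± 0.34), the latter from 217, 312 and 401 to 149.8, 189.8 and 205 in signal. The change of miR-486a-5p was 0.96 ± 0.34 (adjusted p = 0.0131), under the fold set for a call, and it was -0.35 on the scale set by all miRNAs. Of the biliary list miR-200a-3p and miR-200b-3p were tested, both detected at 0 h and on no array at 96 h. None of the 12 markers of brain, muscle and pancreas was detected at 0 h. At 96 h the muscle miRNAs miR-133a-3p and miR-133b-3p were detected on all 3 arrays, miR-133a-3p at 11.7 ± 2.15 units (SD, n = 3), and miR-206-3p on 1 array.

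**Figure D3:**
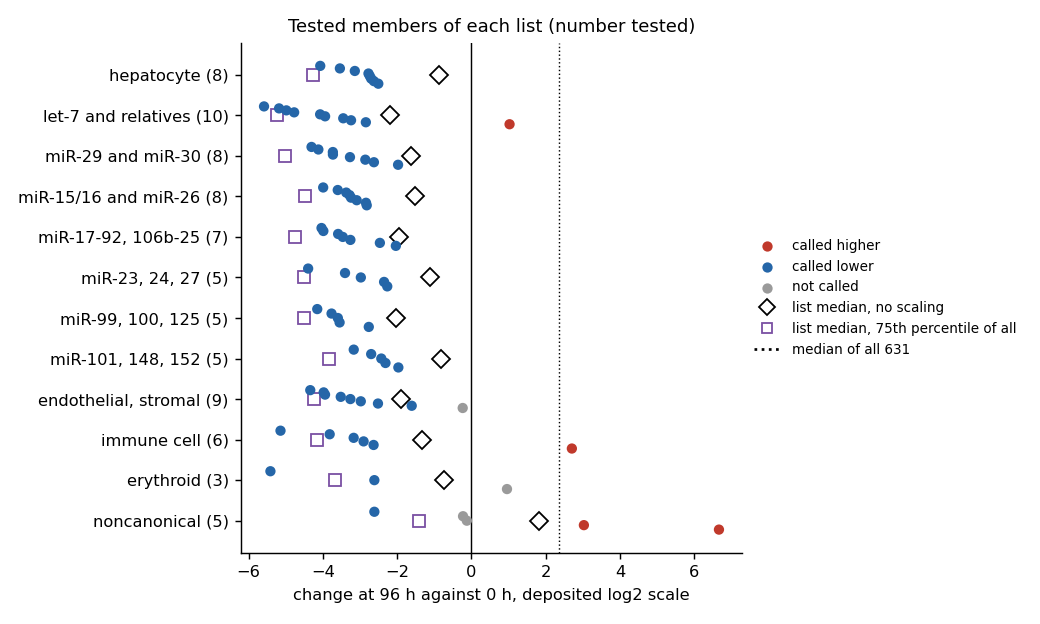
Change at 96 h against 0 h of the tested members of 12 lists, on the deposited log2 scale. Filled points are miRNAs coloured by call, the dotted line is the median of all 631 (2.36), open diamonds are list medians without scaling and open squares those on the scale set by all miRNAs; list medians are below 0 on all these scales except for the noncanonical list, which is above 0 without scaling, and single members that lie above 0 include miR-202-3p and miR-486a-5p, which turn below 0 on the scale set by all miRNAs.

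Some miRNAs bypass a step of the usual pathway, and these did not move as a group. The miR-877 hairpin is a spliced intron that needs no Drosha. Its 5p arm was undetected at 0 h and at 196, 156 and 199 at 96 h, at least 32.4-fold higher (adjusted p = 8.86e-08). Its 3p arm was detected throughout, at 6.17, 6.04 and 5.92 at 0 h and 20.6, 22.6 and 21.1 at 96 h. The deposited change of the 3p arm was -0.12 ± 0.20 (adjusted p = 0.563) and became 1.82 without scaling. The capped, Drosha-independent miR-320-3p was higher (3.03 ± 0.46, adjusted p = 4.04e-06), and Dicer-independent miR-451a was lower. The median of this list of 5 was -0.12 on the deposited scale but 1.37 on the spike-in scale and 1.82 without scaling.

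Base composition differed between rising and falling miRNAs, although no sequence entered the choice of arrays or calls. RefSeq holds the mature sequence of 1608 of the 1881 miRNAs and of 526 of the 631 tested. The median share of G was 40.9% of the bases in the gained miRNAs (237 with a sequence) and 20.9% in the lost (24), against 22.7% in those never detected (934). Among miRNAs detected on all 6 arrays, it was 45.5% in the 80 called higher and 22.7% in the 58 called lower. The printed sequences overlap in this respect: the falling ones run from 9.52% G (miR-3968) to 36.4% (let-7a-5p and let-7d-5p) and the rising ones from 33.3% (miR-721) to 77.3% (miR-5126). Beyond those printed, let-7b-5p (45.5% G), let-7c-5p and let-7e-5p (40.9% each) also fell, while 28 tested miRNAs with at most 20% G were called higher.

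The 43 uncalled miRNAs among those on all 6 arrays formed a further kind. Their median share of G was 18.2%, below that of the falling ones, while C took 42.9% of their bases, against 18.2% in the risers and 21.7% in the fallers. All 49 uncalled miRNAs had rising unscaled signal in the mean over mice (0.95 to 3.37, log2), though miR-5100 fell in mouse 10. Whether they count as level or as rising therefore depends on the scale. The 3p arm of miR-7047 is an example, at 5.01, 4.71 and 5.01 at 0 h and 16.9, 19.9 and 22.8 at 96 h, with a deposited change of 0.03.

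Runs of G were also unequally spread. The letters GGG were searched in the mature strand alone, since the RNA is single-stranded, and longer runs such as GGGG count as a match. They occur in 30.4% of the 1608 miRNAs with a sequence. The share was 61.2% of the gained miRNAs and 19.8% of those never detected, and 1 of the 24 lost miRNAs had such a run. Among those on all 6 arrays, it was 66.2% of the risers and 10.3% of the fallers. Of the 201 miRNAs with a sequence called higher on all 6 scales 75.1% held GGG, and of the 81 called lower on all 6 scales 12.3%. Gained miRNAs were 161 of all 241 called higher on all 6 scales, so these shares are a description.

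Higher calls grew more frequent with the share of G. Of 195 tested miRNAs with over 40% G, 183 were higher (93.8%, against 59.7% of all tested) and 5 were lower. The tested set includes 271 gained miRNAs, of which 227 were higher and none lower. Their detection made this likely, so the counts by share of G are a description. Of 126 with at most 20% G, 28 were higher (22.2%) and 40 were lower (31.7%). Lower calls were most frequent between these, at 49.1% of the miRNAs with 20 to 30% G, where the median change was -0.70. Spearman's rho between change and share of G was 0.68 over the 526 miRNAs and 0.56 over the 181 detected on all 6 arrays, as a description across miRNAs that share arrays and base composition. Length showed no such relation (rho = -0.02). Within tested miRNAs with early names rho was 0.15 for G but 0.56 for G and C together, whereas within the 284 with late names it was 0.68 for G and 0.20 for G and C together. The relation with G alone was thus weak within the early names.

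**Figure D4:**
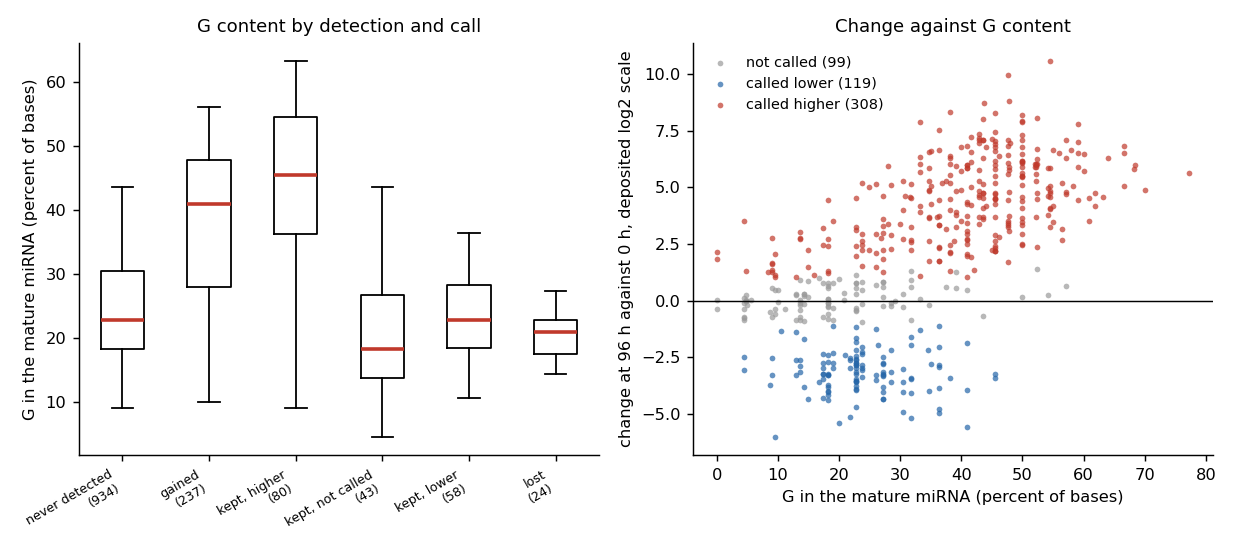
Share of G in the mature miRNA by detection and call (left; boxes span the quartiles, red lines are medians, whiskers the 5th and 95th percentiles, numbers of miRNAs in brackets) and change at 96 h against 0 h on the deposited log2 scale by share of G (right, 526 miRNAs with a sequence, coloured by call). Gained and rising miRNAs have medians of 40.9% and 45.5% G, while falling, lost and uncalled ones lie at or below 22.7%; uncalled miRNAs rise without scaling.

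The arms of a hairpin come from 1 precursor, yet in some hairpins their calls differed. Of 87 hairpins with both arms tested, 25 had both arms called higher and 14 both lower. Over all tested miRNAs 59.7% were higher and 21.6% lower. In 31 hairpins the 5p arm was higher and the 3p arm was not called, and in 5 the reverse held. Some of these 5p arms had 0 h means far below 0 on the deposited log2 scale (-5.09 for miR-6973a, -4.51 for miR-6977). The counts are therefore a description. Opposite calls were made in 6 hairpins (miR-125a, miR-139, miR-195a, miR-652, miR-7241 and miR-99b), of which miR-125a, miR-195a and miR-99b held on all 6 scales.

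The signal of miR-125a-5p was 11, 18.5 and 33.9 at 0 h and 1.55, 2.34 and 17.5 at 96 h, a change of -3.60 ± 0.69 (adjusted p = 6.41e-05). Its partner miR-125a-3p went from 3.81, 3.12 and 2.58 to 608, 785 and 1557, a change of 6.00 ± 0.56 (adjusted p = 9.64e-09). The 96 h arrays of the 3p arm all lay above those of 0 h, and the 5p arm of mouse 10 overlapped with the 0 h arrays of mouse 7 in unscaled signal. For miR-99b the 5p arm was detected only at 0 h and the 3p arm only at 96 h, with changes of -2.76 ± 0.35 and 3.75 ± 0.25. Both hairpins lie in the same gene span, Spaca6, as does let-7e, whose 5p arm fell. The 3p arm of miR-195a was likewise detected only at 96 h (change of 3.27 ± 0.49), while its 5p arm, of the miR-15 and miR-16 seed, fell (-3.37 ± 0.52).

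By arm name, the 275 tested 5p miRNAs had a median change of 3.26 and the 228 tested 3p miRNAs one of 0.29, against 2.36 over all tested. The median of the 3p miRNAs turned with the scale, to 2.38 without scaling, -0.60 on the scale set by all miRNAs and -0.80 after quantile normalization. The consecutive block from miR-6896 to miR-7093, with a 5p and a 3p name for nearly every number, was also split by arm. Of 96 tested 5p arms of the block 88 were higher (against 59.7% of all tested), 62 of them on all 6 scales, and none was lower. On all 3 arrays of a group, 27 of the block's 5p arms were detected at 0 h and 94 at 96 h, so most passed the filter through stored liver and the count is a description. Of 46 tested 3p arms 12 were higher, 2 of them on all 6 scales, and none was lower. The median change of these 3p arms was 0.04 on the deposited scale, 2.17 without scaling and -0.98 on the scale set by all miRNAs. A family of repeated hairpins (miR-297, miR-466, miR-467 and miR-669) had 23 of 25 tested members higher and none lower, but 4 of 25 (16%) were higher on all 6 scales, against 38.2% of all tested, and its median change of 2.25 was close to the overall one.

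**Figure D5:**
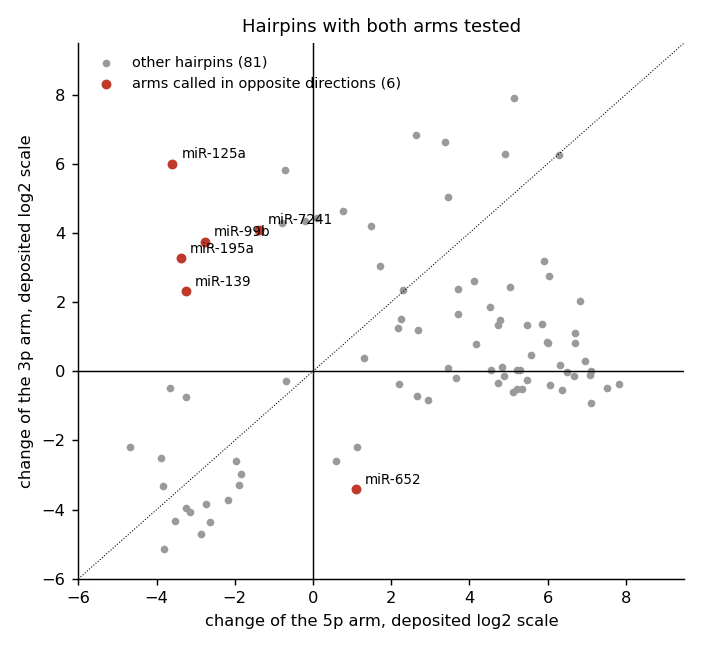
Change at 96 h against 0 h of the 5p arm (x axis) and the 3p arm (y axis) of the 87 hairpins with both arms tested, on the deposited log2 scale; the dotted line marks equal change. Red points are the 6 hairpins whose arms were called in opposite directions, of which miR-125a, miR-195a and miR-99b held on all 6 scales; a band of hairpins with a rising 5p arm has a 3p arm near 0, which lies above 0 without scaling.

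The same 3 animals also gave liver stored and fresh without DNase digestion, on 6 further arrays. The change with DNase minus the change without it was tested for each of the 631 miRNAs. It was called for 1 miRNA with a higher change with DNase (0.158%) and for 6 with a lower one (0.951%), together 1.11% of those tested, and 90 had an unadjusted p below 0.05. The called miRNA with a higher change was miR-6402 (2.35 ± 0.53, adjusted p = 0.0288). Its signal with DNase went from 3.15, 6.77 and 7.92 to 34.7, 94.5 and 13, and without DNase from 11.5, 12 and 13.5 to 12.5, 11.7 and 12.7. Lower changes with DNase were called for miR-467c-5p, miR-32-3p, miR-1943-3p, miR-7047-3p, miR-877-3p and miR-1947-3p. For miR-877-3p the 96 h signals were 20.6, 22.6 and 21.1 with DNase and 54.1, 54.6 and 63.2 without it. No difference was called when mouse 7 or mouse 9 was left out, and 25 higher and 12 lower when mouse 10 was left out, 6 of which are among the 7, so these calls rest on which animals enter. They also rest on the scale, with 15 higher and 25 lower on the spike-in scale and 39 and 24 on the scale set by all miRNAs.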

How the data were processed

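Mouse liver RNA of 24 samples was hybridised to one-colour Agilent SurePrint mouse miRNA arrays (release 21.0). Per the file headers, Agilent Feature Extraction 10.10.1.1 gave intensity values (background-corrected summed signals per probe and miRNA) and a detection flag. The deposited log2 values were made by the authors by variance stabilizing normalization of these signals across arrays. Each array's values follow from its signals by an offset, a factor and an asinh transform (largest residual 1.03e-05), where undetected miRNAs enter with the sum of their probe signals. This sum is also the signal printed here for undetected miRNAs, and can be below 0. Arrays give no counts, so no counting interval applies.

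Groups were taken from the labels. For mouse 9, the doses of the depleted samples with low and high RNase differ between label fields and follow the descriptions. These arrays enter only through the shared spread. Tested were the 631 of 1881 miRNAs whose flag was set on 5 or more of the 24 arrays. The study's methods word a similar filter that keeps more miRNAs, and the reason for the difference is not known. Limma 3.58.1 in R 4.3.3 fitted 8 group means over all 24 arrays with a trended prior, and p-values were adjusted by the Benjamini-Hochberg method over the 631. In data simulated on these miRNAs for this comparison, 66% of changes of 1.5 and 96% of changes of 3 (log2) were recovered, with 5 false calls. The simulation changed 100 miRNAs at each size, equally up and down, with independent noise per array and no scaling step. In the data 81.3% of the tested miRNAs were called, so these rates need not hold for them. Single values per array were compared by exact permutation tests (two-sided). Replicate numbers pair the arrays because they mark the same animal; deviations from the group means of the 0 h and 96 h array of an animal correlated at 0.13, 0.05 and 0.04 in mice 7, 9 and 10. The 6 scales are the deposited values, spike-in scaling, no scaling, the 75th percentile of the miRNAs detected on all arrays, that of all miRNAs, and quantile normalization.

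Named miRNAs were the 6 largest called rises and falls among those detected on all 6 arrays and moving one way in all mice, the 6 brightest gained and lost, the 5 with the largest share of signal in each group, members of lists, and up to 3 called differences in each direction between storage with and without DNase; hairpins with opposite arms, miR-6394, block members and printed examples were chosen after their values were seen. The members and lists were chosen with earlier results of these data known. A fold against an undetected group used, per array, the higher of its lowest detected value and the miRNA's own value. An adjusted p beside such a fold is that of the limma change, not of the bound. Probe flags and mean spot signals are not used here; the normexp setting used median spot signals. Tissue pieces of 1 liver are the replicates' source, so p-values measure the spread between 3 animals.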

Additional observations from a re-analysis of the deposited data

Results flagged for a closer look

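The change with storage differed between liver RNA isolated with and without DNase in a test of the difference itself (limma interaction) for 7 miRNAs. The difference, with DNase minus without, was 2.35 for miR-6402 (log2), -2.99 for miR-467c-5p, -2.84 for miR-32-3p, -2.12 for miR-1943-3p, -2.07 for miR-7047-3p, -1.61 for miR-877-3p and -1.47 for miR-1947-3p. Adjusted p ranged from 0.00303 (miR-1943-3p) to 0.0460 (miR-1947-3p). For miR-1943-3p the signals at 96 h were 5.04, 4.4 and 3.83 with DNase in mice 7, 9 and 10 and 20, 21.1 and 21.2 without it, while all 6 arrays at 0 h lay between 1.6 and 2.35. For miR-32-3p, the opposite arm of a relative of miR-25, they were 27.6, 29.6 and 4.49 with DNase and 266, 128 and 110.0 without it. None of the 7 was called when mouse 7 or mouse 9 was left out. The number of such calls also changed with the scale.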

How the results depend on the processing

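Against 377 higher and 136 lower calls, the normexp background correction gave 76 and 77, no filter on detection 638 and 578, the methods' rank test 0 and 0, and calls made on all 6 scales together (chosen after seeing the data) 241 higher. Of the calls, 73.5% were higher on the deposited scale, 83.6% without scaling, 57.1% on the scale set by all miRNAs, 59.6% after quantile normalization and 49.7% after normexp. The median change of 2.36 became 3.04 (spike-ins), 3.55 (no scaling), 0.84 (miRNAs detected on all arrays), 0.46 (all miRNAs), 0.79 (quantile), 0.15 (normexp) and -0.087 (no filter). A single detection level of 0.9011 units gave a difference of 415 detected miRNAs per array and 355 miRNAs on every array, and a flag that needs every probe gave 130. The 1 higher and 6 lower differences between storage with and without DNase became 15 and 25 (spike-ins), 13 and 23 (no scaling), 9 and 30 (detected on all arrays), 39 and 24 (all miRNAs), 11 and 23 (quantile), 2 and 18 (no filter), 0 and 2 (detected on 3 or more of the 6 arrays) and 5 and 14 (the 12 arrays of this RNA), with 0 higher under normexp. Signs turned for miR-3963 (0.093 spike-ins, 0.55 no scaling), miR-5100 (0.49, 0.95), miR-1943-3p (0.55, 1.01), miR-484 (1.34, 1.80), miR-877-3p (1.37, 1.82, and -0.35 to 0.020 without 1 mouse, the highest without mouse 9) and miR-145a-5p (1.24, 1.70, and -0.86 to 0.69 without 1 mouse, the highest without mouse 10). They also turned for miR-6402 (-0.058 detected on all arrays, -0.72 all miRNAs, -1.02 quantile, -0.27 normexp), miR-202-3p (-0.43 all miRNAs, -0.79 quantile, -0.29 normexp), miR-486a-5p (-0.35, -0.57, -0.13) and miR-133b-3p (-0.010 normexp). The cause of these shifts was not tested. Leaving out each mouse in turn gave 350 to 370 higher and 133 to 143 lower calls, 0 to 25 higher and 0 to 12 lower differences by DNase, medians of 2.14 to 2.56, 316.5 to 376.5 more detected miRNAs, 211 to 234 on every array, 292 to 383 gained, 28 to 45 lost, 1.42 to 2.06 for the summed signal and 0.43 to 0.47 for the spike-ins. With the mouse as a replicate block there were 379 higher and 136 lower calls, and no call of the 108 named miRNAs changed. An alternative on the scanner's own flag per probe was not run. Signal near background limits the lost miRNAs and the fold bounds.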

Other observations

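Control features of the array moved in different directions between 0 h and 96 h. The signal of hur_1 was 17169, 20606 and 22343 at 0 h in mice 7, 9 and 10 and 4940, 12716 and 1608 at 96 h. That of hur_6 was 2308, 3849 and 4934 at 0 h and 313, 896 and 580 at 96 h. The corner feature miRNABrightCorner30 was higher at 96 h, at 250, 303 and 301 against 115, 169 and 151.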
